A study of Mus musculus with 2 samples.

Results

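The mouse Mir322 cluster, with Mir503 and Mir351, is a group of microRNA genes on the X chromosome whose human counterpart is named after miR-424. Its 7 genes, Mir322, Mir503, Mir351, Mir542, Mir450-2, Mir450-1 and Mir450b, were taken by their GENCODE M21 symbols out of 1973 microRNA gene rows in the deposited count tables, and all 7 were found with reads in both libraries. The data are microRNA-sized reads from heart tissue of B6NCrl mouse embryos at embryonic day 12.5, with male and female embryos pooled. There were 2 biological replicates, 1 library each, from separate tissue samples of the same strain entry and all of 1 group, with no treatment, genotype or control to compare. The questions addressed here are therefore how the members' levels differ from each other, how well they repeat between the libraries, and which sequences they share.

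A microRNA gene is transcribed as a longer RNA that folds into a hairpin, from which the enzymes Drosha and Dicer cut a mature strand from the 5′ arm (5p) and one from the 3′ arm (3p). A mature microRNA pairs with messenger RNAs mainly through its seed, bases 2 to 8, so microRNAs with the same seed are grouped as relatives. Of the cluster, miR-322 and miR-503 belong to the extended miR-15/16 family, known for repressing cyclins and other cell cycle genes. Both are known to promote muscle differentiation and have been linked to the specification of cardiac progenitors.

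The mature sequences below are those after which the genes are named, shown because their seeds decide which other genes are comparable. They are from RefSeq on GRCm38.p6, 5′ to 3′, with the seed in capitals, and the table held mature sequences for all 7 members. The counts are per gene and do not separate the 5p from the 3p strand, so a level belongs to a gene and not to the strand printed here.
miR-322-5p: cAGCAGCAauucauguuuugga
miR-503-5p: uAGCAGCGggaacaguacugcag
miR-351-5p: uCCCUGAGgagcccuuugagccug
miR-542-3p: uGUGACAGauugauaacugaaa
miR-450a-5p, from Mir450-1 and from Mir450-2: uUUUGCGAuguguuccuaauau
miR-450b-5p: uUUUGCAGuauguuccugaaua

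These 6 sequences carry 6 different seeds. The seeds of miR-322-5p and miR-503-5p differ at 1 base, A8G, with positions counted from 1 at the 5′ end and the base of miR-322-5p written first. Over 22 positions set side by side without gaps these microRNAs share 11 bases. The seeds of miR-450a-5p and miR-450b-5p differ at 2 bases, G7A and A8G with the base of miR-450a-5p first, and the strands share 15 of 22 bases. The seeds of miR-351-5p and miR-542-3p are unlike those of the other members.

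All 7 hairpins lie on the minus strand of chromosome X in GRCm38 (mm10), within 6353 bases. In the direction of transcription the order is Mir322 (ENSMUSG00000065418.1, 53054255 to 53054349), Mir503 (ENSMUSG00000076122.1, 53053984 to 53054054), Mir351 (ENSMUSG00000065503.1, 53053255 to 53053353), Mir542 (ENSMUSG00000076140.1, 53049403 to 53049487), Mir450-2 (ENSMUSG00000076399.1, 53048299 to 53048367), Mir450-1 (ENSMUSG00000065486.1, 53048154 to 53048244) and Mir450b (ENSMUSG00000076050.1, 53047997 to 53048078). Mir322 and Mir503 are 200 bases apart and Mir503 and Mir351 630 bases. A gap of 3767 bases follows before Mir542. The 3 Mir450 hairpins are packed with gaps of 54 and 75 bases, at 1035 bases from Mir542.

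The annotations differ on a host gene. In GENCODE M21 none of the 7 hairpins overlaps another annotated gene: the non-coding C430049B03Rik ends upstream of Mir322, at 53055046, and the long non-coding Gm28730 (53051194 to 53053159) lies in the gap between Mir351 and Mir542. In RefSeq C430049B03Rik runs from 53053112 to 53057190 and spans Mir351, Mir503 and Mir322, 3 of the 7 members, while Mir542 and the Mir450 genes lie outside it. Whether the hairpins fall in exons or introns of that gene is not given in the table used. The nearest protein-coding genes are Hprt, on the downstream side and the opposite strand, and Plac1 on the upstream side.

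**Figure D1:**
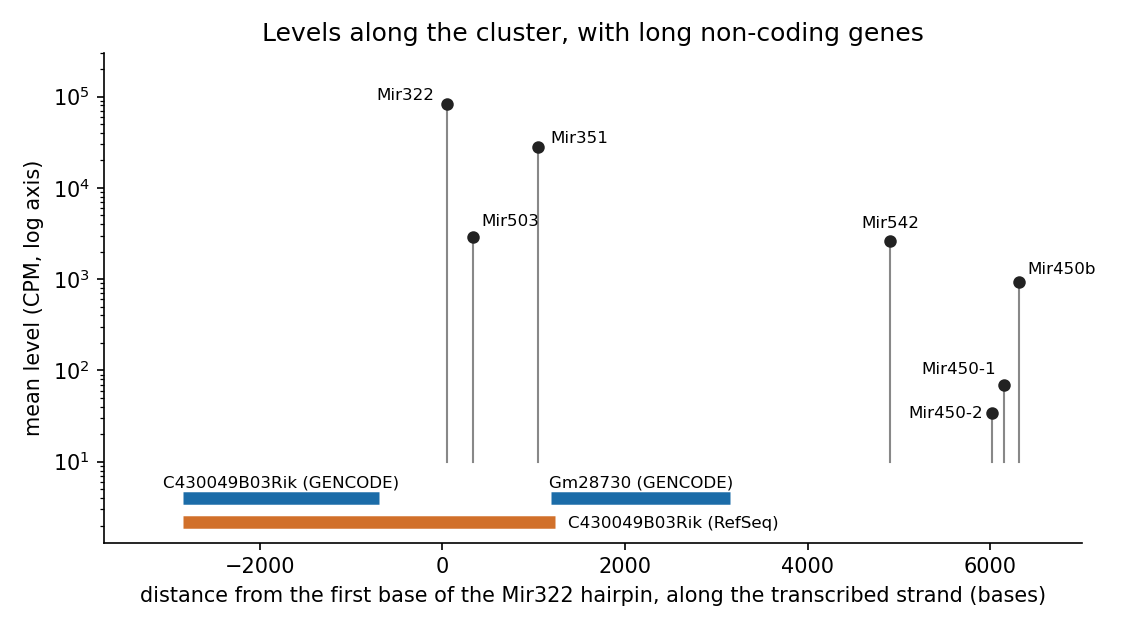
Mean level of each gene in CPM on a log axis (points, mean of 2 libraries) against the distance in bases from the first base of the Mir322 hairpin along the transcribed strand, with long non-coding genes drawn as bars (GENCODE in blue, RefSeq in orange). Mir322 and Mir351 stand highest, within the RefSeq span of C430049B03Rik, with Mir503 between them near 2901 CPM.

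The cluster supplied more than 11% of the reads counted to microRNA genes in the heart at this stage. Replicate 1 held 4478599 and replicate 2 held 5279908 reads in the direction of an annotated microRNA gene (sense counts), and levels are given in CPM, the counts scaled so that these sum to 1000000 in each library. The 7 genes had 536495 counts in replicate 1 and 603738 in replicate 2. Their share was 11.98% (95% Clopper-Pearson interval 11.95 to 12.01) in replicate 1 and 11.43% (11.41 to 11.46) in replicate 2, or 11.7% ± 0.385 (SD, n = 2). Of all reads, with those counted to no gene, the share was 5.75% ± 0.0806 (SD, n = 2). These intervals cover only the counting error of reads within a library, and the libraries differed by more than that. No molecular identifiers are stated, so repeated reads of the same molecule are not told apart from reads of separate molecules. In whole tissue, fewer cells of a type and less RNA per cell cannot be told apart.

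Mir322 and Mir351 carried nearly all of this share. Mir322 made up 73.6% and 66.8% of the cluster's counts in replicates 1 and 2, and Mir351 made up 20.9% and 27.5%. Mir503 followed with 2.38% and 2.58%, and Mir542 with 2.199% and 2.296%. The 3 Mir450 genes together held 0.8593% and 0.9001%. The 3 genes inside the RefSeq span of C430049B03Rik held 96.9% ± 0.0970 (SD, n = 2). A share so near the whole has little room to vary, and the opposite changes of Mir322 and Mir351 offset each other within it. Its small SD is therefore not compared with the SD of their single shares.

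Mir322, whose 5p strand has the miR-15/16 seed, had 394957 counts in replicate 1 and 403076 in replicate 2, or 88188 and 76342 CPM. By counts that leave out reads fitting several places in the genome, it ranked 2 and 3 among all genes in the respective libraries. Its mean level was 82265 ± 8376 CPM (SD, n = 2), lower in replicate 2. Mir351, whose 5p strand has the miR-125 seed, had 112381 and 165761 counts, or 25093 and 31395 CPM. By the same counts it ranked 10 and 8, and its mean was 28244 ± 4456 CPM (SD, n = 2), higher in replicate 2. The values of these genes did not overlap, and Mir322 exceeded Mir351 by a ratio of 3.51 (95% counting interval 3.49 to 3.54) in replicate 1 and 2.43 (2.42 to 2.45) in replicate 2.

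Mir503, a close relative of the miR-15/16 family by its seed, lies between those genes but stood far below them. It had 12747 and 15606 counts, or 2846 and 2956 CPM, with a mean of 2901 ± 77.4 CPM (SD, n = 2). Mir322 exceeded it by a ratio of 28.4 ± 3.65 and Mir351 by a ratio of 9.72 ± 1.28 (SD, n = 2 each). The level thus fell and rose again within the 3 upstream hairpins, and did not follow the order of the genes.

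Mir542, named after a 3p strand with a seed of its own, had 11800 and 13861 counts, or 2635 and 2625 CPM, with a mean of 2629.99 ± 6.73 CPM (SD, n = 2). Among the 7 members it was the nearest to Mir503 in level. The ratio of Mir503 to Mir542 was 1.08 in replicate 1 and 1.13 in replicate 2, so Mir503 was the higher of the pair in both libraries, and this is the smallest step in the order of the 7 levels. The gap between these means was larger than the spread of either gene between replicates, and with 2 libraries no test of it was made.

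The Mir450 genes, at the downstream end, were the lowest of the 7 and differed widely from each other. Mir450b had 4169 and 4861 counts, or 931 and 921 CPM, with a mean of 926 ± 7.22 CPM (SD, n = 2), and ranked 83 in both libraries. Mir450-1 had 292 and 391 counts, or 65.2 CPM (95% exact Poisson interval 57.9 to 73.1) and 74.1 CPM (66.9 to 81.8). Mir450-2 had 149 and 182 counts, or 33.3 CPM (28.1 to 39.1) and 34.5 CPM (29.6 to 39.9). The order Mir450b, Mir450-1, Mir450-2 held in both libraries without overlap of the intervals. Mir450b exceeded Mir450-1 by a ratio of 13.35 ± 1.305 (SD, n = 2), and Mir450-1 exceeded Mir450-2 by 2.05 ± 0.133 (SD, n = 2). From top to bottom of the cluster, Mir322 exceeded Mir450-2 by a ratio of 2433 ± 308 (SD, n = 2).

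**Figure D2:**
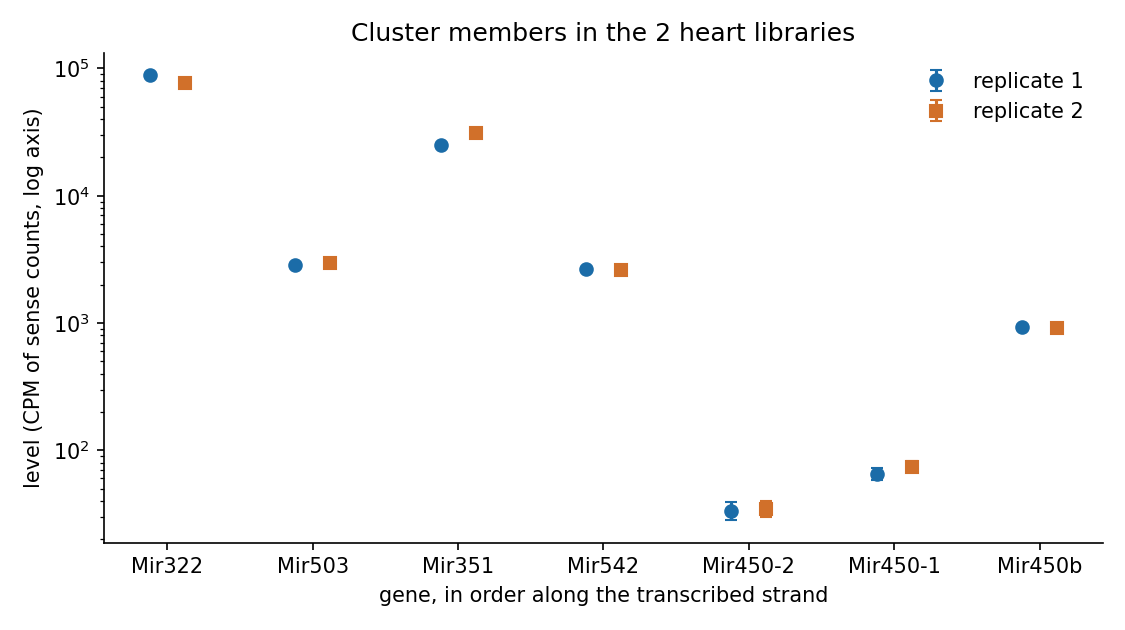
Level of each member in replicate 1 (circles) and replicate 2 (squares) in CPM of sense counts on a log axis, with 95% exact Poisson intervals that cover counting error only. The levels run from 82265 CPM for Mir322 to 33.9 CPM for Mir450-2, and the libraries keep the same order of the 7 genes.

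Sequence copies bear on the Mir450 levels, because reads that fit several places in the genome are kept in a row of their own and counted to no gene. Those reads numbered 2503492 (27.1% of all reads) in replicate 1 and 2677232 (25.3%) in replicate 2, and the tables do not say where they fit. Mir450-1 and Mir450-2 give the same miR-450a-5p, printed above. Their hairpins share 4 overlapping stretches of 22 bases, taken from every base in turn, with each other and with no other hairpin among 1005 in the table. No stretch of 22 bases of Mir322, Mir503, Mir542 or Mir450b was found in another hairpin. For Mir351, whose hairpin was not compared, none was found in its mature strands. The counts of Mir450-1 and Mir450-2 hence do not measure the total of miR-450a-5p, and the part of this in their low place was not tested.

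The 3p strands of the Mir450 genes differ, and are shown because they are the mature strands that tell Mir450-1 from Mir450-2. Mir450b differs from both more in its 5p strand, which shares 15 of 22 bases with miR-450a-5p, than from Mir450-1 in its 3p strand.
miR-450a-1-3p, from Mir450-1: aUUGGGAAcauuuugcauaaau
miR-450a-2-3p, from Mir450-2: aUUGGGGAugcuuugcauucau
miR-450b-3p, from Mir450b: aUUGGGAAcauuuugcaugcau
The strands of Mir450-1 and Mir450-2 share 16 of 22 bases, and the seeds, again in capitals, differ by A7G with the base of miR-450a-1-3p first. The strands of Mir450-1 and Mir450b are the same over the seed and up to base 18, and differ by A19G and A20C. With stretches of 18 bases in place of 22, Mir450b therefore also shares sequence with Mir450-1, and 3 of the 7 members are then affected. The part of this in the level of Mir450b was not tested.

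By seed, Mir322 was the dominant gene of the AGCAGCA group among the counted reads. The RefSeq table lists 11 genes with a mature strand of this seed, Mir322 included, of which 10 were in the count tables and 6 had a count. The strands of the relatives with counts, and of Mir497, are shown to compare them with miR-322-5p, with the seed in capitals.
miR-15a-5p: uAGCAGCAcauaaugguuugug
miR-15b-5p: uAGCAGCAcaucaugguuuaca
miR-16-5p, from Mir16-1 and from Mir16-2: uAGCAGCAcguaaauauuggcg
miR-195a-5p: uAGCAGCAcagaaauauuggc
miR-497a-5p: cAGCAGCAcacugugguuugua
Outside the seed miR-322-5p shares the base at position 1 with miR-497a-5p. Over the whole strands, seed included, these 2 have 15 of 22 bases in common, as do miR-322-5p and miR-15a-5p.

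Mir322 held 94.4% of the sense counts of this group in replicate 1 and 93.2% in replicate 2. The next gene was Mir15a at 2127 and 2178 CPM, followed by Mir16-1 at 1630 and 1857 CPM and by Mir15b at 853 and 827 CPM. Mir16-2 stood at 320 and 397 CPM and Mir195a at 320 and 292 CPM. Together the relatives came to 5401 ± 213 CPM (SD, n = 2), against 82265 ± 8376 CPM for Mir322. Mir195b, Mir6342, Mir6353 and Mir6419 had 0 counts in both libraries, for which the upper limits are 0.670 and 0.568 CPM in replicates 1 and 2. The share of Mir322 carries the same limit as above, since miR-16-5p comes from 2 genes and reads that fit both are left out. Among genes of the group whose strand is in no other gene the share was 96.1% ± 0.377 (SD, n = 2). This share could only be higher, because Mir16-1 and Mir16-2 drop out of the sum, so it does not address that limit. The total of miR-16-5p was not measured, so the lead of Mir322 holds for counted reads only. Mir497 was not counted as a gene of its own here. GENCODE M21 places it opposite to Mir497b, where 1770 and 2122 reads lay on the opposite strand, and with these added the share of Mir322 was 93.4% ± 0.861 (SD, n = 2).

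Among the counted reads, Mir351 led the CCCUGAG group, which it shares with the miR-125 family. The strands of the relatives with reads are shown for comparison with miR-351-5p, with the seed in capitals.
miR-125a-5p: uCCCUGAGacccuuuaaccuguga
miR-125b-5p, from Mir125b-1 and from Mir125b-2: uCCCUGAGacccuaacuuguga
Both are the same as miR-351-5p from base 1 to base 8 and first differ from it at base 9. Over the positions set side by side, miR-351-5p shares 10 of 22 bases with miR-125b-5p and 10 of 24 with miR-125a-5p, so they have little in common beyond the seed.

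Mir351 held 88.4% and 89.7% of the sense counts of the 6 genes in this group in replicates 1 and 2. Mir125a stood at 2377 and 2647 CPM, Mir125b-2 at 608 and 623 CPM, and Mir125b-1 at 312 and 318 CPM, while Mir6367 and Mir6394 had 0 counts. The relatives summed to 3443 ± 205 CPM (SD, n = 2), against 28244 ± 4456 CPM for Mir351. The 2 Mir125b genes give the same strand, so their reads can be left out as those of miR-16-5p are. Among genes whose strand is in no other gene the share of Mir351 was 91.8% ± 0.620 (SD, n = 2). It too could only be higher, because the 2 Mir125b genes drop out of the sum. The seeds of miR-503-5p, miR-542-3p and miR-450b-5p were found in no other gene of the table, and that of miR-450a-5p only in its 2 genes.

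**Figure D3:**
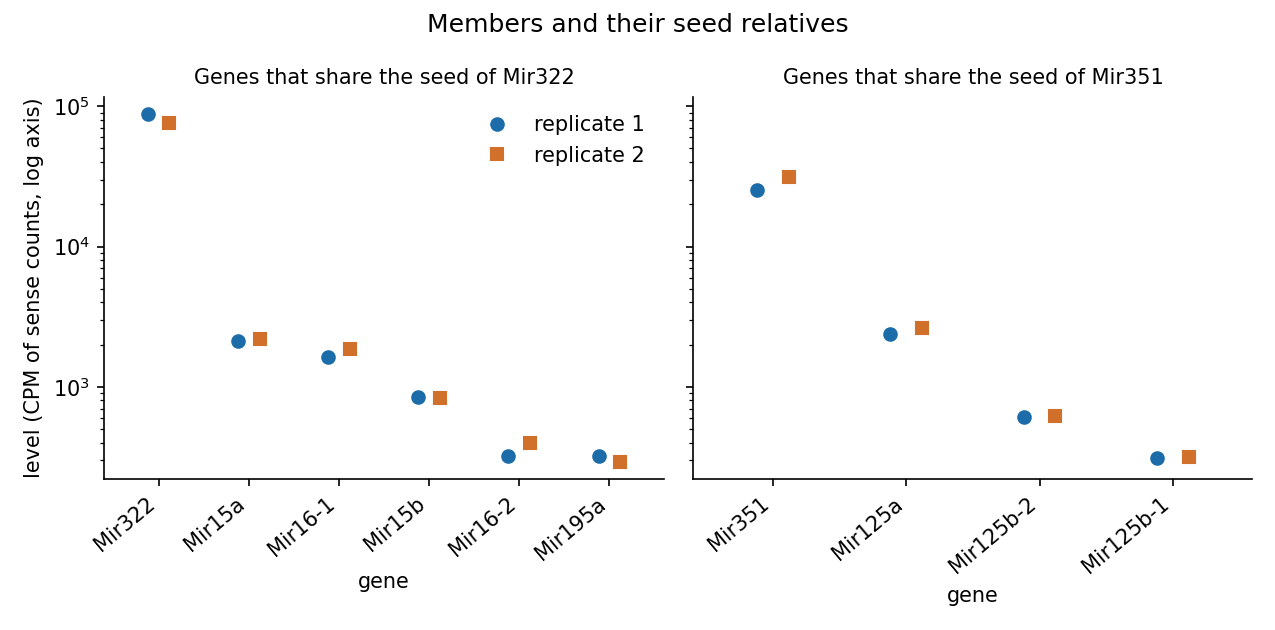
Levels in CPM of sense counts on a log axis of the genes with a count that share the seed of miR-322-5p (left) or miR-351-5p (right), in replicate 1 (circles) and replicate 2 (squares). Mir322 and Mir351 lie above all their relatives in both libraries, with Mir15a (2152 CPM) and Mir125a (2512 CPM) next.

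Between the libraries, Mir322 and Mir351 moved in opposite directions while the other members differed little or within counting error. The ratio of replicate 2 to replicate 1 was 0.866 (95% counting interval 0.862 to 0.869) for Mir322, a log2 ratio of −0.21, and 1.25 (1.24 to 1.26) for Mir351, a log2 ratio of 0.32. The ratio was 1.04 (1.01 to 1.06) for Mir503, 0.996 (0.972 to 1.02) for Mir542 and 0.989 (0.949 to 1.03) for Mir450b. For Mir450-1 it was 1.14 (0.974 to 1.33) and for Mir450-2 1.036 (0.8298 to 1.295), and these intervals include 1. The cluster's total differed less than its leading genes: Mir322 was 13.4% lower in replicate 2 and Mir351 25.1% higher, while the share of all 7 went from 11.98% to 11.43%.

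In an exact two-sided binomial test of the counts, with Benjamini-Hochberg adjustment over 712 genes with a count, Mir322, Mir351 and Mir503 passed an adjusted p of 0.05, and the adjusted p of Mir503 was 0.0107. Of all genes tested 16.7% passed, 8.01% higher and 8.71% lower in replicate 2. Members passed 2 times in the higher and 1 time in the lower direction. The test holds counting error alone and compares 2 libraries of 1 group, not conditions, so it calls small differences in deeply counted genes: among those averaging 1000 CPM or more, 83.3% passed, and of the 4 members above that level 3 did. The members' count is thus near the background for their depth and is not a result about the cluster.

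By size, the differences of Mir322 and Mir351 stood toward the edge of what genes of this abundance showed. Among 78 genes of at least 1000 CPM the median absolute log2 ratio was 0.09. Of these, 6 genes had a larger absolute log2 ratio than Mir351, and 12 had a larger one than Mir322, Mir351 among them. The difference of Mir503 was exceeded by 53 genes and that of Mir542 by 76. Over the 7 members the median log2 ratio was 0.05, with 4 higher and 3 lower in replicate 2, beside −0.01 over 586 genes with a count in both libraries, of which 48.8% were higher. The log2 ratios of Mir542 and Mir450b lay so near 0 that their direction is not read here: another scaling of the libraries, which shifts all genes alike, changes the sign. The ratio of Mir322 to Mir351 within a library does not depend on scaling, and its log2 value fell by 0.53 from replicate 1 to replicate 2.

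**Figure D4:**
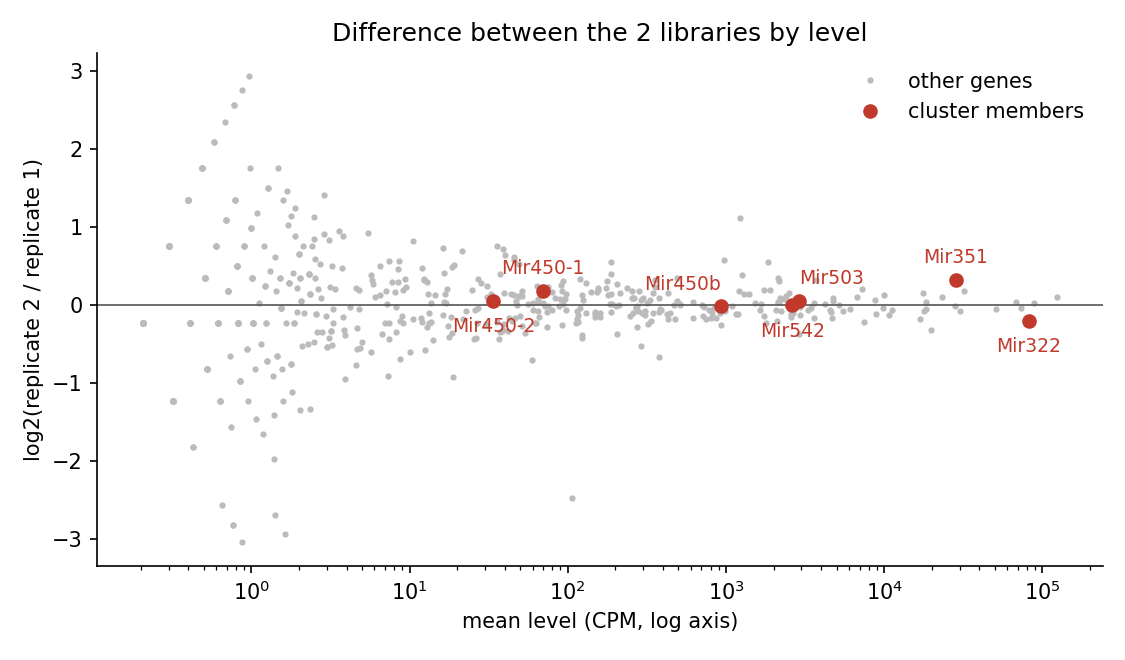
Log2 ratio of replicate 2 to replicate 1 against mean level in CPM (log axis) for 586 genes with a count in both libraries (grey) and the 7 cluster members among them (red). Mir351 lies at 0.32 and Mir322 at −0.21, and the other members lie between −0.02 and 0.18.

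The heart muscle markers examined were present at high levels, and of 9 markers examined Mir451a and Mir122 differed most between the libraries. The heart muscle microRNAs Mir208a, Mir208b and Mir499 stood between 2138 and 50918 CPM on average, with log2 ratios between −0.05 and 0.03, and the endothelial Mir126a had one of 0.04. Some other muscle microRNA genes, outside these 9, stood far lower in replicates 1 and 2. Mir1a-1 had 2.46 and 4.73 CPM, Mir133a-2 had 0.447 and 1.52 CPM, Mir133b had 5.58 and 3.79 CPM, and Mir206 had 29.0 and 24.6 CPM. The part of reads that fit several places in these low levels was not tested. The smooth muscle genes Mir143 and Mir145a had log2 ratios of 0.03 and 0.18. Mir451a, of red blood cell precursors, stood at 770 and 1671 CPM, while Mir144 of the same lineage stood at 156 and 140 CPM. The liver microRNA Mir122 stood at 181 and 32.4 CPM. The part of these differences in those of Mir322 and Mir351 was not tested.

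The genes nearest to each member in level were taken over both libraries, by the distance in log2(CPM + 1), and each member's 2 nearest genes lay outside the cluster. For Mir322 these were Mir143 (distance 0.23) and Mir99a (0.26), and for Mir351 Mir21a (0.24) and Mir30e (0.28). Mir503 was nearest to Mir532 (0.06) and Mir298 (0.12), and Mir542 to Mir296 (0.07) and Mir181c (0.08). Mir450b lay at 0.02 from Mir148a and 0.04 from Mir434, Mir450-1 at 0.11 from Mir7689 and 0.14 from Mir301b, and Mir450-2 at 0.10 from Mir129-2 and 0.18 from Mir30c-2. With 2 libraries of 1 group this is a likeness of level and not a pattern across conditions.

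The mir-106a-363 cluster, a relative of mir-17-92 that is linked to proliferation, lies on the same strand, 305.4 kilobases downstream. Its 6 genes reached 270 and 264 CPM in sum, with Mir106a highest at 92.2 and 97.0 CPM and Mir19b-2 lowest at 3.57 and 2.65 CPM. The Mir322 cluster held 119791 and 114346 CPM in sum, higher by a ratio of 439 ± 7.35 (SD, n = 2). Reads that fit several places are left out of both sums. Sequences shared between the 6 mir-106a-363 genes and other genes were not compared, so their levels and this ratio hold for counted reads only. Even Mir450b, the member below Mir542, stood above the sum of all 6 genes in both libraries, while Mir450-1 and Mir450-2 lay within the range of the single genes. None of the 6 passed the binomial test of the libraries, with the lowest adjusted p at 0.202 for Mir363. Of all 712 genes tested 16.7% passed, so with 6 genes at low counts this is not a result about that cluster.

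Reads on the strand opposite to the members were nearly absent. All 7 had 0 antisense counts in replicate 1, and in replicate 2 Mir322 had 1 and the other 6 had 0.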

How the data were processed

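Reads per microRNA gene were analysed in 2 libraries of 1 group. The deposited values are raw counts, 1 table per library, on assembly mm10 and annotation M4 per the descriptions deposited with them; how reads were aligned and counted is not given in the sources used here. Columns carry no names; from their sums the authors' count columns were read as unstranded, sense and antisense, and sense counts were used. The 4 rows that name no gene (51.5% and 50.2% of reads) stayed out of library sizes and tests. Of 1973 gene rows, 1894 had an identifier in GENCODE M21 (GRCm38), which gave symbols and positions; sequences came from RefSeq on GRCm38.p6.

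CPM were computed over all sense counts. One read is worth 0.223 and 0.189 CPM in replicates 1 and 2. Spread between replicates is the SD of 2 values; intervals are 95% exact (Poisson for a level, Clopper-Pearson for a share or ratio). The comparison of libraries was an exact binomial test over all genes with a count. It was tested on counts drawn with 200 genes changed. Distances used a pseudocount of 1 CPM. The named genes were all members, genes sharing their seeds, the 2 nearest in level to each, the miR-15/16, Mir195 and Mir497, miR-125 and mir-106a-363 genes and 9 tissue markers. Alternatives changed the strand column, denominator, scaling (TMM of edgeR 4.0.16, size factors of DESeq2 1.42.0, in R 4.3.3), pseudocount, count filter and window length, and left out each replicate; addition of reads opposite to Mir497b was chosen after seeing the data. Other steps used Python 3.11.15, scipy 1.17.1 and matplotlib 3.10.9. Members and lists were chosen with earlier results of these data known.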

Additional observations from a re-analysis of the deposited data

Results flagged for a closer look

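Reads opposite to Mir497b, outside the sense counts and where Mir497 of the AGCAGCA seed group is annotated, stood at a mean of 399 CPM of the sense total, above the limit that a count of 0 allows. Reads that fit several places made up 26.2% of all reads on average, and the part of them that belongs to miR-450a-5p, miR-16-5p or miR-125b-5p was not measured.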

How the results depend on the processing

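The cluster's share of 11.7% became 11.2% with counts of both strands and 5.75% of all reads when rows that name no gene were in the denominator; leaving out a replicate gave 11.43% and 11.98%, which with 2 replicates are the values of the single libraries and no test of stability. The levels of all 7 members moved with that denominator, and those of Mir503, Mir542, Mir450-2 and Mir450b also with counts of both strands, the replicate spread of these 4 genes being small. Scaling shifts the log2 ratios of all genes by the same amount, so that of Mir542 went from −0.01 to 0.015 with TMM and to 0.0035 with DESeq2 size factors, and that of Mir450b from −0.02 to 0.0045 with TMM. These changes of sign are no property of the genes. Mir322, Mir351 and Mir503 passed in all 5 settings of the binomial test. The genes called ranged from 113 of 712 tested with DESeq2 size factors to 128 of 444 with at least 10 counts in total. Among genes of at least 1000 CPM 83.3% passed in the main setting, so this is not a result about the members. The seed group shares of Mir322 and Mir351 rose when only strands found in 1 gene were kept, a direction fixed by dropping relatives from the sum. The members that share a stretch with another hairpin went from 2 to 3 with stretches of 18 bases. No paired analysis was possible because all samples form 1 group. With 2 replicates the SD itself is poorly known, and depth limits mainly Mir450-1 and Mir450-2.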
